A study of Homo sapiens with 21 samples.

Results

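The zinc finger genes of chromosome 19 were taken as every gene of the count table named ZNF followed by a number, with an optional letter, whose listed positions all lie on that chromosome. The rule found 249 members among 26485 genes. RefSeq symbols matched 246 of them, of which 238 are annotated as protein coding and 8 as transcribed pseudogenes. The members were compared with the other 1395 genes of chromosome 19 and with 276 numbered ZNF genes on other chromosomes. 4 further numbered ZNF genes, ZNF85, ZNF100, ZNF43 and ZNF676, also have entries on an alternate contig and are not members.

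The study used MDA-MB-436, an established triple-negative breast cancer cell line with a BRCA1 mutation. RNF8, a ubiquitin ligase of the DNA break response, was depleted with a lentiviral hairpin under doxycycline control (shRNF8), and cells with a control hairpin (shScr), which the labels also call WT, served as the comparison. Polyadenylated RNA was sequenced in 3 shRNF8 and 3 shScr libraries. DNA-RNA hybrids were precipitated with the S9.6 antibody (DRIP-seq) in 4 shRNF8 and 2 shScr libraries, and each of these has an RNase-treated partner (4 shRNF8 and 2 shScr). The labels name no further RNF8 hairpin and no rescue, so RNF8 loss, other effects of this hairpin and differences between the transduced populations cannot be told apart. Nor do they give the origin of replicates in separate cultures; the p-values below therefore cover spread between samples that may be only technical. In bulk RNA, less RNA per cell and fewer expressing cells cannot be told apart.

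Most zinc finger genes of this chromosome arose by local duplication and stand in head-to-tail clusters. Many encode a KRAB domain, which recruits the corepressor TRIM28 and through it the histone methyltransferase SETDB1, HP1 proteins and the CHD3 remodeller to retroelements and other targets. The gene bodies of many family members carry H3K9 methylation themselves, and ZNF274, itself a member, is known to bind near the 3′ ends of other zinc finger genes. R-loops, in which nascent RNA pairs with the template DNA, are known to form at starts with CpG-rich sequence and near transcription ends.

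The promoters of 4 members are shown to set sequences of members with start peaks beside those of members without, and were chosen after their values were seen. ZNF274 and ZNF446 had an S9.6 peak at the start in all 6 S9.6 libraries. ZNF136 and ZNF708 had none in any of them and were among the members with the largest fitted RNA increases in shRNF8. The sequences are from RefSeq (GRCh38.p14), run 5′ to 3′ on the strand of the gene from 250 bases before the RefSeq start to 50 bases after it, and have each CG dinucleotide in capitals. They lie at chr19:58182811-58183110 (ZNF274, plus strand), chr19:58476102-58476401 (ZNF446, plus strand), chr19:12162846-12163145 (ZNF136, plus strand) and chr19:21329361-21329660 (ZNF708, minus strand).
ZNF274: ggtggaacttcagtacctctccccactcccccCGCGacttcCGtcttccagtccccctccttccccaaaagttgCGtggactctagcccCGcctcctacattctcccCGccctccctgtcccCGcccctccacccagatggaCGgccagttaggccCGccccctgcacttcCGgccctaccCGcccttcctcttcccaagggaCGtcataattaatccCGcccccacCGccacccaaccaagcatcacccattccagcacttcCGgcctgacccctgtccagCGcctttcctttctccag
ZNF446: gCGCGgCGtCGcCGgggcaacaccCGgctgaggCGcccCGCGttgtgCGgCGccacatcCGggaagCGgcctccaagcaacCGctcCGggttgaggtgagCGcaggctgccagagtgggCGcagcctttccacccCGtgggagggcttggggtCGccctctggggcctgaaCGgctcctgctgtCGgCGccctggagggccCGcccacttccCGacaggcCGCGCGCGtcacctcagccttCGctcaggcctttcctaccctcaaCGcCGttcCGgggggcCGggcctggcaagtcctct
ZNF136: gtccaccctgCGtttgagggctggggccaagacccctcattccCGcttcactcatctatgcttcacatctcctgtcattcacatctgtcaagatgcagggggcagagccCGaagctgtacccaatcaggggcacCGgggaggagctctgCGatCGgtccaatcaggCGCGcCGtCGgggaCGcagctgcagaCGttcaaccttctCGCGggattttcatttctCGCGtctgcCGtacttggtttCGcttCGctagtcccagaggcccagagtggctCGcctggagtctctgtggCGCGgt
ZNF708: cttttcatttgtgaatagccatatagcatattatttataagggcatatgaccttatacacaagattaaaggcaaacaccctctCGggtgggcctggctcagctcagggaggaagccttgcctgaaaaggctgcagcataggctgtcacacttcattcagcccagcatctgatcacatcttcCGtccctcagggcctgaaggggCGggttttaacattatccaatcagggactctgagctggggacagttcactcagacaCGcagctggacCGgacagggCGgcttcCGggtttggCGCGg

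CG dinucleotides, which read the same on both strands, numbered 16 in the ZNF274 promoter, 33 in ZNF446, 22 in ZNF136 and 9 in ZNF708. The start in the count table lay 72, 188, 39 and 29 bp from the RefSeq start in these 4 genes. RefSeq promoters matched 209 members, 179 of them within 100 bp of the start in the count table. Among the 209, 94.3% held 10 or more CG, against 70.2% of the other chromosome 19 promoters and 56.5% of all 34961 promoters. The median number of CG was 24 in the 13 matched members with a start peak in all 6 S9.6 libraries, 23 in the 82 with one in 1 to 5 libraries, 20 in the 81 RNA-tested members with none and 14 in the 33 untested members with none. Median GC content ran in the same order, at 65.7%, 61.3%, 59.7% and 57.0%.

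RNF8 itself measured 9.33, 9.99 and 7.94 CPM (counts scaled to library size, with TMM factors) in shRNF8 libraries 1 to 3, against 28.9, 29.1 and 28.0 CPM in shScr libraries 1 to 3. The targeted gene was therefore lower in each shRNF8 library (log2 fold change -1.66, SE 0.13, edgeR quasi-likelihood adjusted p = 0.000165). The RNA libraries held 18121181 to 20006954 counts. All 8 markers of a mesenchymal-like breast cancer line on the list used passed the filter on low counts, the hormone receptor genes ESR1 and PGR and the estrogen-responsive TFF1 were at or near 0, and of 12 markers of other cell types 11 were under 1 CPM and CD14 measured 7.62 CPM in shRNF8 and 11.5 CPM in shScr. 1 RNA library stood apart: without shScr replicate 1, the genes called numbered 1823 higher and 2042 lower of 14259, against 136 higher and 220 lower of 14018 with all libraries. The shRNF8 S9.6 libraries fell into pairs, replicates 1 and 2 with 32358 and 34103 peaks and replicates 3 and 4 with 50963 and 48546, and the share of peaks on chromosome 19 was 12.3% and 13.2% in the first pair and 9.46% and 9.65% in the second. shScr replicates 1 and 2 had 49277 and 38659 peaks, of which 11.5% and 11.6% lay on chromosome 19.

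Members were transcribed at low levels. After the filter on low counts 196 of the 249 were tested, 53 were not, and 26 of the untested had no count in any library. Per kilobase of exon, the tested members had a median level of 2.37 CPM per kb, against 11.4 in the other chromosome 19 genes tested, 3.77 in tested ZNF genes elsewhere and 7.21 over all genes tested. Together the members took 0.263%, 0.260% and 0.260% of all counts in shRNF8 libraries 1 to 3, against 0.238%, 0.253% and 0.250% in shScr libraries 1 to 3. The shRNF8 shares all lay above the shScr shares.

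The first comparison asked whether the RNA of these genes differed in shRNF8 cells. No member passed the test in either direction (edgeR quasi-likelihood test with Benjamini-Hochberg adjustment over 14018 genes), while 2.54% of all genes tested were called. DESeq2 called 0 members as well. At an unadjusted p under 0.05 stood 32 members by edgeR (16.3%, against 20.1% of all genes tested) and 24 by DESeq2, and of the 32, 28 were fitted higher and 4 lower in shRNF8. No tested member differed by 2-fold or more, and the fitted log2 fold changes ran between -0.54 and 0.91.

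The fitted direction was uneven. Of the 196 tested members 130 (66.3%) had a positive log2 fold change, against 34.4% of the other chromosome 19 genes, 49.4% of ZNF genes elsewhere and 49.2% of all genes. The median log2 fold change of the members was 0.11, against -0.10 in the other chromosome 19 genes, -0.003 in ZNF genes elsewhere and -0.005 over all genes. Measured from each gene's mean over the shScr libraries, the median member lay at 0.09, 0.07 and 0.15 in the shRNF8 libraries, in the order of their numbers, against -0.02, 0.04 and -0.005 in the shScr libraries, on the log2 scale, so the groups did not overlap. In 40 members every shRNF8 library was above every shScr library, which held for 12.5% of all genes tested, and in 10 every shRNF8 library was below, which held for 12.8%. Taken in either direction, separate groups were as common in members (25.5%) as in all genes tested (25.3%), and only the split by direction differed. These are descriptions of the list, and no member supports them singly.

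**Figure D1:**
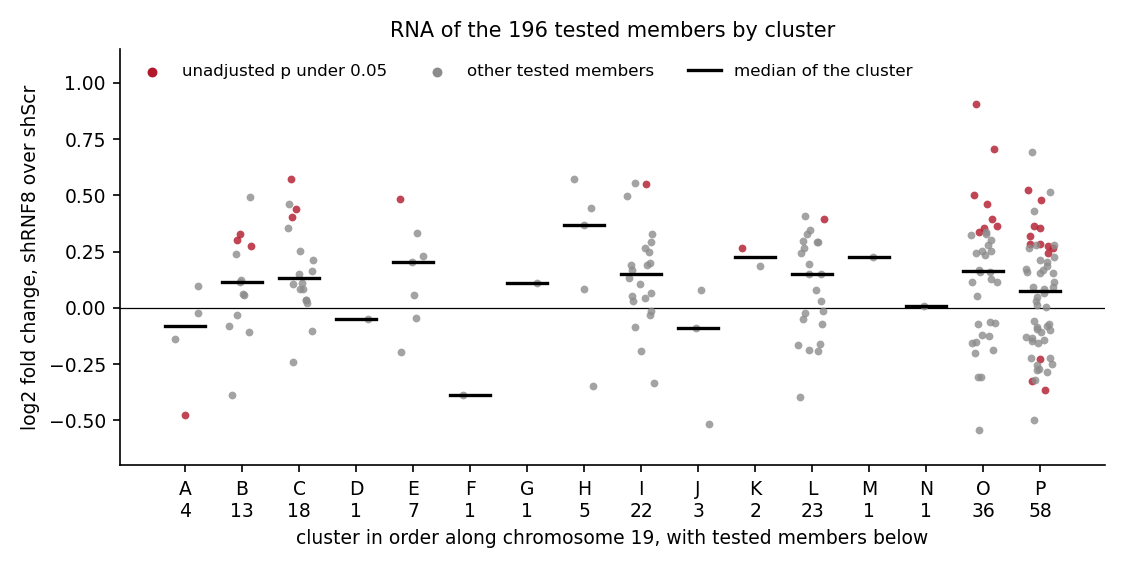
Log2 fold change of shRNF8 over shScr for each of the 196 tested members, in 16 clusters lettered in order along chromosome 19, with the number tested under each letter. Black bars are cluster medians and red points have an unadjusted p under 0.05; no point passed the adjusted test, and the medians lie above 0 in clusters B, C, E, G, H, I, K, L, M, N, O and P.

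Members were grouped into 16 clusters, lettered A to P along the chromosome, wherever consecutive members lay no more than 1 Mb apart. Among the clusters with more than 10 tested members, the median log2 fold change was 0.11 in B (13 tested), 0.13 in C (18), 0.15 in I (22), 0.15 in L (23), 0.17 in O (36) and 0.07 in P (58). In C, 16 of 18 members were fitted higher, and in P 34 of 58. At an unadjusted p under 0.05, in either direction, stood 8 of the 36 tested members of cluster O, at 51.6 to 53.6 Mb. In cluster P, at 55.5 to 58.5 Mb, 13 of the 58 did. Both counts lie near the 20.1% of all genes tested. These 6 medians thus shared one sign.

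ZNF136, which encodes a KRAB zinc finger protein (cluster C, chr19:12163057-12189249), had the largest fitted increase among members with a mean of at least 5 CPM and the smallest adjusted p of all members. It measured 8.59, 8.76 and 8.39 CPM in shRNF8 libraries 1 to 3, against 5.62, 5.53 and 6.13 CPM in shScr libraries 1 to 3. The groups did not overlap, at 1.49-fold (8.58 ± 0.189 in shRNF8 and 5.76 ± 0.324 in shScr, SD, n = 3 each; log2 fold change 0.57, SE 0.15, edgeR adjusted p = 0.0714). ZNF583, also of the KRAB class, had 7.95, 6.92 and 7.55 CPM in shRNF8 and 6.70, 4.82 and 4.05 CPM in shScr (1.44-fold, edgeR adjusted p = 0.184), with shScr replicate 1 near the lowest shRNF8 library.

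ZNF708, of the pericentromeric cluster E, had 10.4, 9.89 and 11.5 CPM in shRNF8, against 6.96, 7.91 and 7.85 CPM in shScr (edgeR adjusted p = 0.102, log2 fold change 0.48, SE 0.15). ZNF256, a KRAB protein known to bind TRIM28, had 11.8, 13.8 and 13.5 CPM in shRNF8 and 10.4, 8.24 and 9.47 CPM in shScr (log2 fold change 0.48, edgeR adjusted p = 0.101). Neither gene's groups overlapped, and neither passed the adjusted test. ZNF816 had 11.8, 9.43 and 12.2 CPM in shRNF8 and 7.88, 7.59 and 8.1 CPM in shScr, but overlaps the readthrough gene ZNF816-ZNF321P, so its counts are uncertain.

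The 5 members with the largest fitted decreases, at a mean of at least 5 CPM, included 4 from cluster P and ZNF555 from cluster A. ZNF524, known to bind telomeric DNA, had 10.2, 10.3 and 8.44 CPM in shRNF8 libraries and 12.3, 11.9 and 13.1 CPM in shScr libraries (log2 fold change -0.36, SE 0.14, edgeR adjusted p = 0.181). ZNF550 had 18.6, 16 and 19.8 CPM in shRNF8 and 24.6, 23.2 and 20.3 CPM in shScr (edgeR adjusted p = 0.189, log2 fold change -0.33, SE 0.13). The groups were separate in both genes. ZNF555 (log2 fold change -0.48), ZNF460 (-0.32) and ZNF580 (-0.28) had groups that overlapped, with shScr replicate 1 inside the shRNF8 range in each.

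**Figure D2:**
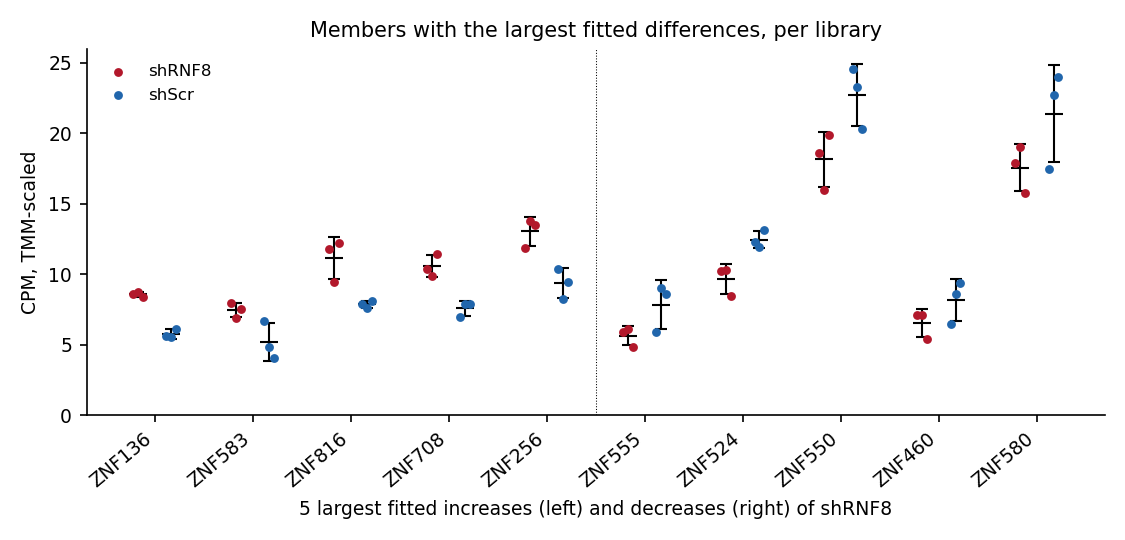
CPM (TMM-scaled) in each RNA library for the 5 members with the largest fitted increases and the 5 with the largest fitted decreases at a mean of at least 5 CPM; points are libraries, bars the mean and SD of 3. The shRNF8 points of ZNF136, ZNF583, ZNF816, ZNF708 and ZNF256 all lie above the shScr points, and none of the 10 genes passed the adjusted test.

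With shScr RNA replicate 1 left out, 32 of 196 members were called, 24 higher and 8 lower, in a setting where 12.8% of all genes were called higher and 14.3% lower. The members' shares were 12.2% higher and 4.08% lower, so the first is near the share of all genes. ZNF583 (log2 fold change 0.75, edgeR adjusted p = 0.00432), ZNF256 (0.56, edgeR adjusted p = 0.00746) and ZNF136 (0.56, edgeR adjusted p = 0.0138) were among the members called higher there, and ZNF555 (-0.64, edgeR adjusted p = 0.00726) and ZNF580 (-0.41, edgeR adjusted p = 0.0145) among those called lower. In 95 of the 196 members shScr replicate 1 lay nearer to the shRNF8 mean than to the mean of the other shScr libraries. The same share over all genes tested was not computed, so this count cannot be called particular to members. The part of shScr replicate 1 in the members' values was not tested further.

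The 6 members with the highest level per kilobase were ZNF787 (50.0 CPM per kb), ZNF581 (40.2), ZNF444 (36.9), ZNF358 (28.1), ZNF146 (27.2) and ZNF579 (22.3). ZNF444 encodes a SCAN-domain protein and ZNF146 a protein made almost wholly of zinc fingers. ZNF787 had 105, 90.9 and 84.3 CPM in shRNF8 and 125, 93.8 and 107 CPM in shScr (edgeR adjusted p = 0.331, log2 fold change -0.22, SE 0.12). The other 5 had log2 fold changes between -0.23 (ZNF581) and 0.17 (ZNF146) and did not pass the test, so the most abundant members were spread on both sides of 0. ZNF146 shares its start region with ZNF565, and reads of the overlap cannot be assigned.

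Of the corepressor list, 33 of 34 genes were in the table and tested, and 0 passed the test (3 at an unadjusted p under 0.05; median log2 fold change 0.04). TRIM28, the KRAB corepressor, had 988, 970 and 933 CPM in shRNF8, against 1152, 766 and 834 CPM in shScr (a log2 difference of 0.07 with SE 0.14, edgeR adjusted p = 0.802). SETDB1, the H3K9 methyltransferase, had 56.7, 57.6 and 55.9 CPM in shRNF8 and 66.7, 54.2 and 56.0 CPM in shScr (edgeR adjusted p = 0.792). In both genes the shRNF8 values lay within the shScr range. CHD3, the remodeller that TRIM28 binds, had 300, 294 and 263 CPM in shRNF8 and 208, 214 and 233 CPM in shScr, separate groups at an adjusted p of 0.0506 by edgeR, just short of the threshold.

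The DRIP-seq comparison began with the background. A start peak was counted where a peak summit lay within 1000 bp of the gene start. In the S9.6 libraries 58, 52, 44 and 40 members had one in shRNF8 replicates 1 to 4, and 75 and 53 in shScr replicates 1 and 2. In all 6 RNase-treated libraries, which held 254 to 1912 peaks, the count was 0, which allows a share of up to 1.20% of members. Over all genes with 1 locus the share in these libraries was 0.0120% to 0.252%, so the count of 0 is not particular to members. The mean was 53.7 ± 12.3 in S9.6 libraries and 0 in RNase-treated libraries (SD, n = 6 each; exact permutation within hairpin, two-sided p = 0.00476, the smallest that 420 relabelings can give). Over all RNase-treated libraries 1 peak fell in or beside a member, in shScr replicate 2. With only peaks of at least 5-fold enrichment the mean difference was 29.8 members.

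The second comparison asked whether shRNF8 changed the peaks of members. The shRNF8 mean was 48.5 ± 8.06 members with a start peak (SD, n = 4), against 64 ± 15.6 in shScr (SD, n = 2). The difference of -15.5 had a two-sided exact permutation p of 0.2, and 0.0667 is the smallest that 15 splits allow. The groups overlapped, since shRNF8 replicate 1 was above shScr replicate 2. Counted within the pairs of shRNF8 libraries, the difference was -9 with replicates 1 and 2 and -22.0 with replicates 3 and 4. When a whole peak only had to overlap the start window, the counts were 65, 54, 54 and 51 in shRNF8 and 78 and 57 in shScr (difference -11.5, exact p = 0.133). With the same number of peaks kept in each S9.6 library the difference was -5.75, without shScr replicate 1 it was -4.50, and without shScr replicate 2 it was -26.5. As a percent of tested genes, the difference was -7.78 percentage points in members and -6.86 in the other chromosome 19 genes (exact permutation p = 0.2 in both). In ZNF genes elsewhere it was 0.111.

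Peaks whose summits lay in or beside a member numbered 243, 207, 273 and 236 in shRNF8 replicates 1 to 4 and 327 and 245 in shScr replicates 1 and 2. As a share of all peaks of the library this was 0.751%, 0.607%, 0.536% and 0.486% in shRNF8 and 0.664% and 0.634% in shScr (difference -0.0537 percentage points, exact p = 0.6). The first pair of shRNF8 libraries had the higher shares and the second pair the lower. Without shRNF8 replicates 3 and 4 the difference was 0.0303, of the opposite sign.

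The third comparison set members against other genes within each library, for genes that passed the same RNA filter. Of tested members 28.6%, 26.0%, 20.9% and 19.9% had a start peak in shRNF8 replicates 1 to 4 and 36.7% and 26.5% in shScr replicates 1 and 2. Over the 6 libraries the mean was 26.4 ± 6.07% of members and 49.1 ± 5.40% of the other chromosome 19 genes (SD, n = 6), a difference of -22.6 percentage points with the same sign in 6 of 6 libraries (exact sign-flip test over libraries, two-sided p = 0.0312, the smallest that 64 sign changes can give). The difference was -13.8 with untested genes included, -15.03 with a window of 500 bp, and -39.6 when a peak interval only had to overlap the window. At gene ends, from 1000 bp before to 5000 bp after, the gap was wider, at 19 ± 3.02% of members and 66.8 ± 4.97% of the other chromosome 19 genes (exact p = 0.0312). ZNF genes elsewhere stood closer to the members, with start peaks in 32.6 ± 3.11% (difference -6.15, exact p = 0.0625) and end peaks in 27.2 ± 5.06% (difference -8.25, exact p = 0.0312). Over all tested genes with 1 locus, 31.6% to 41.0% had a start peak and 30.8% to 40.3% an end peak. In every library these shares lay above those of members and below those of the other chromosome 19 genes. The other chromosome 19 genes are thus a high reference.

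**Figure D3:**
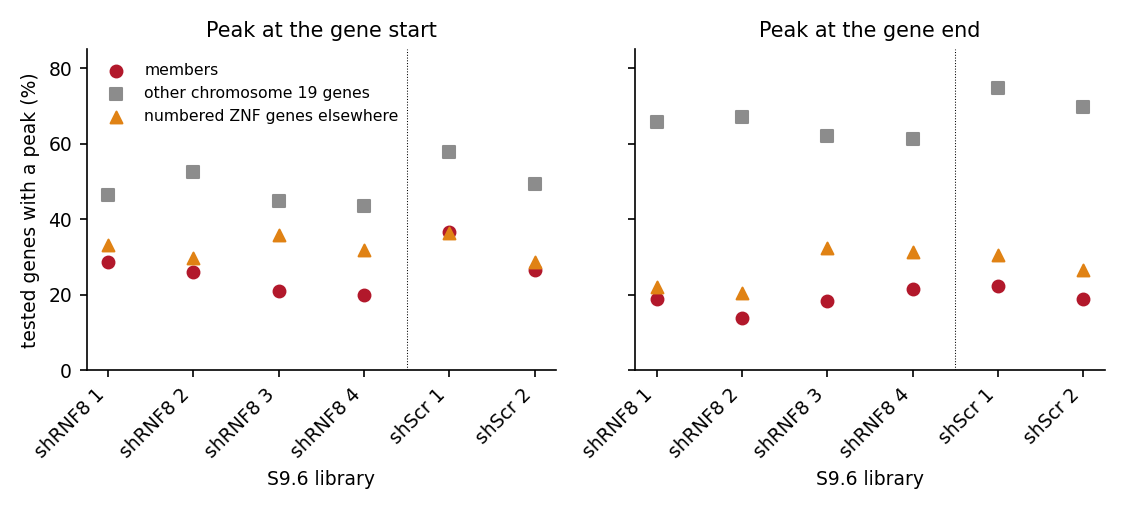
Percent of RNA-tested genes with an S9.6 peak at the start (left) and at the end (right) in each S9.6 library, for members, other chromosome 19 genes and numbered ZNF genes on other chromosomes. Members lie below the other chromosome 19 genes in every library at both places, with means of 26.4% of members and 49.1% of the other genes at the start, and 19% of members and 66.8% of the other genes at the end.

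The low level of transcription moved with these shares. Among genes under 1 CPM per kb, untested ones included, a mean of 8.08% of 99 members had a start peak, against 19.97% of other chromosome 19 genes. Between 1 and 3 the shares were 16.7% of members and 36.8% of other genes, and between 3 and 10 they were 37.3% of 67 members and 49.6% of other genes. At 10 and over they were 59.4% of 16 members and 55.8% of other genes. The mean share of members was thus below that of other genes in every class under 10 CPM per kb. From 1 CPM per kb upward the ranges over libraries overlapped at the start. Such an overlap can set the highest library of members against the lowest library of other genes. Whether the gap closed within each library at matched level was not tested. ZNF genes elsewhere stood at 36.1% and 58.8% in the upper 2 classes.

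At gene ends the level was matched in the same way. With 3 to 10 CPM per kb, 26.4% of members (17.9% to 37.3% over libraries) had an end peak, against 68.7% of other chromosome 19 genes (64% to 76.2%), ranges that did not overlap. ZNF genes elsewhere had one in 34.3% (26.0% to 42.3%), a range that overlapped that of the members. At 10 and over, 65.6% of members and 75.3% of other genes had one, with overlapping ranges, and 40.3% of ZNF genes elsewhere. Overlaps here, too, are of ranges over libraries and do not show equal shares within a library. Members span a median of 19598 bp, against 10000 bp for the other chromosome 19 genes, and the part of gene length and spacing in the shares was not tested.

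**Figure D4:**
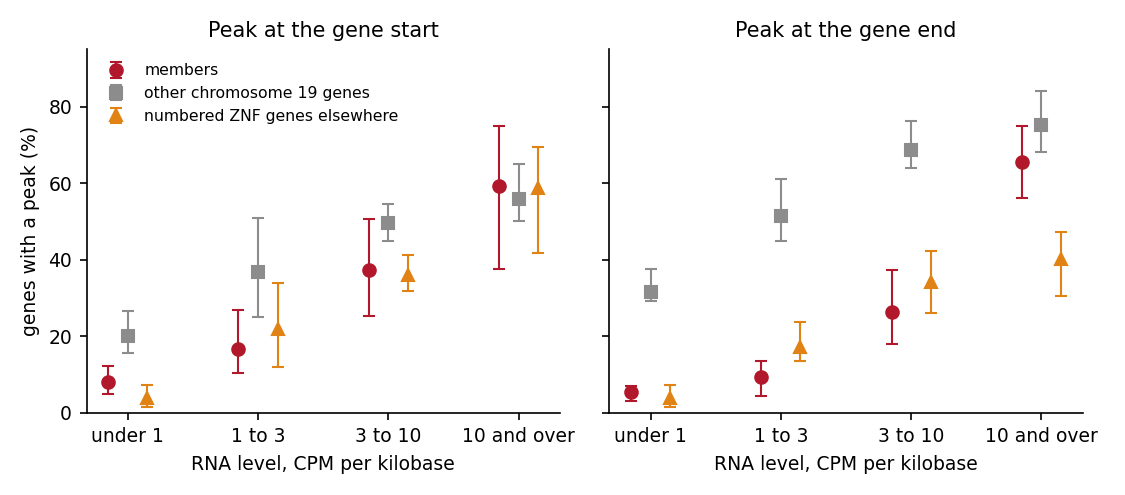
Percent of genes with an S9.6 peak at the start (left) and the end (right) in 4 classes of RNA level, as the mean of 6 S9.6 libraries with bars from the lowest to the highest library. Start shares of members climb to 59.4% in the highest class, near the 55.8% of other chromosome 19 genes, while end shares at 3 to 10 CPM per kb are 26.4% of members and 68.7% of other chromosome 19 genes.

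Within members, a mean of 22.1% of peaks lay at the start, 45.8% in introns, 10.7% in the last exon, 3.57% in other exons and 17.9% after the end. In the other chromosome 19 genes the start held 12.4%, introns 59.9%, the last exon 6.55%, other exons 12.2% and the stretch after the end 8.94%. The last exon of a zinc finger gene usually holds the whole finger array, while the exons before it are short. Summits within the start window lay downstream of the start more often than upstream in each library, in 54.8% to 75.6%, with medians 86.5 to 282 bp downstream.

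Members with a start peak were most numerous in one cluster. Cluster P, the last before the telomere of the long arm, held 60 members, of which 33, 31, 19 and 20 had a start peak in shRNF8 replicates 1 to 4 and 38 and 31 in shScr replicates 1 and 2. This was 31.7% to 63.3% of its members, against 10.6% to 19.6% of the 189 members elsewhere, and the 2 ranges did not overlap. The cluster had 43.2% to 59.6% of all members with a start peak, 50 of its 60 had one in at least 1 library, and 10 of the 14 members with one in all 6 libraries lay in it. Its tested members, 58 of the 60, had a median level of 4.39 CPM per kb. Over all 249 members 196 were tested, at a median of 2.37 CPM per kb. The part of RNA level in the share of cluster P was not tested. Cluster K, with only 2 members, had a higher mean share, of 87.5% in shRNF8 and 100% in shScr. All peaks in the span of P numbered 68.7, 76.0, 67.4 and 67.7 per Mb in shRNF8 and 106 and 83.3 per Mb in shScr. These densities, not scaled to total peaks, were lower in shRNF8 without overlap, a pattern picked out after the values were seen and not tested. Set against each library's total peaks, the groups overlapped. There shRNF8 replicate 2 (229 of 34103 peaks) stood above both shScr libraries (318 of 49277 and 251 of 38659).

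Clusters E and I held few peaks for their length, while clusters K and L, with 118 to 138 and 71.3 to 103 peaks per Mb over the 6 S9.6 libraries, were in or above the range of P. Cluster E, in the pericentromeric part of the short arm at 19.7 to 24.1 Mb, held 32 members, of which 7 were tested, and 1.57 to 4.26 peaks per Mb over the 6 S9.6 libraries. 2 of its members had a start peak in any library. Cluster I, at 36.2 to 37.8 Mb, held 26 members, 22 of them tested at a median of 1.38 CPM per kb, and 1.88 to 6.89 peaks per Mb. There 3, 4, 2 and 2 members had a start peak in shRNF8 and 8 and 5 in shScr, which is few genes. Over all clusters the density was 34.7 to 48.5 peaks per Mb within the 18.2 Mb they cover and 83.0 to 119 per Mb on the rest of the chromosome.

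**Figure D5:**
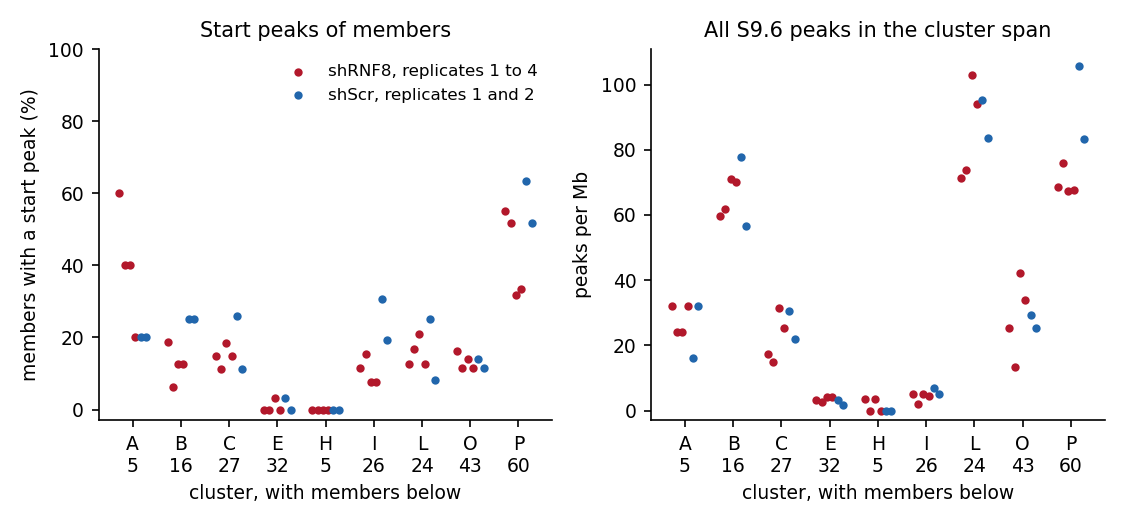
Percent of members with a start peak (left) and all S9.6 peaks per Mb of the cluster span (right) in each S9.6 library, for the clusters with 5 or more members. Cluster P stands at 31.7% to 63.3% of members, while clusters E, H and I hold few peaks of any kind.

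Over the 249 members, 143 had a start peak in no S9.6 library, 31 in 1, 18 in 2, 13 in 3, 18 in 4, 12 in 5 and 14 in all 6. The 14 are 5.62% of members, against 6.03% of all genes with 1 locus. With peak intervals in place of summits, 26 members (10.4%) had the start covered in all 6, against 15.8% of all genes and 32.9% of other chromosome 19 genes. The median RNA level was 4.09 CPM per kb in the 14 and 0.711 in the members with no start peak.

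ZNF274 had the highest mean fold enrichment at the start among the 14. The fold, which is the authors' value for each peak over its local background, was 32.2, 20.2, 7.03 and 6.86 in shRNF8 replicates 1 to 4 and 22.6 and 19.2 in shScr replicates 1 and 2. shRNF8 replicates 3 and 4 had the lowest values, and in them the peak was split in pieces of 368 to 976 bp, against 1 peak of 2252 to 2853 bp in the other 4 libraries. The promoter printed above lies inside that single peak and, in shRNF8 replicates 3 and 4, between the pieces. ZNF274 RNA measured 51.7, 56.1 and 49.5 CPM in shRNF8 and 49.3, 47.4 and 50.8 CPM in shScr (edgeR adjusted p = 0.609).

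ZNF446, which has a SCAN and a KRAB domain, had fold values of 26.2, 13.8, 8.99 and 14.1 in shRNF8 and 17.2 and 11.8 in shScr. Its peaks were 4709 to 11715 bp wide and covered the promoter with 33 CG. The shRNF8 values lay on both sides of the shScr values, and ZNF446 RNA did not pass the test (log2 fold change -0.27, edgeR adjusted p = 0.322). ZNF653, a repressor of the nuclear receptor NR5A1, had 23, 8.67, 12.7 and 10.9 in shRNF8 and 15 and 10.4 in shScr. Its gene body overlaps ECSIT and MIR7974.

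The lower-ranked of the 6 named were weaker. ZNF784 had fold values of 12.7, 12.7, 4.78 and 6.69 in shRNF8 and 6.31 and 8.67 in shScr. ZNF837 had 7.24, 6.76, 4.66 and 3.08 in shRNF8 and 13.5 and 10.2 in shScr, so every shRNF8 library was lower there, although its RNA was only 2.70 ± 0.819 CPM in shRNF8 and 2.83 ± 0.671 CPM in shScr (SD, n = 3 each). ZNF554 had 6.91, 4.87, 10.2 and 10.9 in shRNF8 and 5.06 and 5.15 in shScr, groups that overlapped. The fold values of a peak come from libraries of unknown read depth and were not tested.

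1 member, ZNF211, had a start peak in all 4 shRNF8 libraries and in no shScr library, with fold values of 5.22, 4.33, 4.24 and 4.77. It makes up 0.402% of members, against 0.596% of all genes with 1 locus that had this pattern. By interval overlap ZNF700 joined it, giving 0.803% of members, against 0.704% of all genes. ZNF211 RNA was 17.8, 18.6 and 17.7 CPM in shRNF8 and 17.7, 15.6 and 17.4 CPM in shScr, groups that overlapped.

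5 members had a start peak in both shScr libraries and in no shRNF8 library, 2.01% of members, against 1.34% of all genes. By interval overlap 4 of them kept the pattern, 1.61% of members, against 1.06% of all genes. These were ZNF527 (fold values of 6.76 and 4.75), ZNF154 (6.63 and 4.58), ZNF561 (5.05 and 4.27) and ZNF266 (4.51 and 4.35), beside a median fold of 5.13 and 5.37 over all peaks in members in shScr replicates 1 and 2. ZNF154, a gene known for promoter methylation in many tumours, had 4 to 14 counts in every RNA library and was not tested. ZNF527 and ZNF561 were fitted higher in shRNF8 (log2 fold change 0.55 and 0.33, edgeR adjusted p = 0.194 and 0.125).

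The fifth, ZNF580, shows how a broad peak can move between calls. 1 peak of 8936 to 30256 bp covered the starts of ZNF580 and its neighbour ZNF581 in all 6 libraries, with fold values of 73.1, 46.2, 29.0 and 36.7 in shRNF8 and 34.6 and 30.6 in shScr. Its summit lay at 1878 to 4287 bp from the ZNF580 start in shRNF8, downstream of it, and at -761 and -794 bp in shScr, upstream of it. The start was thus covered in every library, and only the summit differed. By the summit rule the same peak counted for ZNF581 in shRNF8 replicates 1 and 2 alone. ZNF581 RNA was 46.8, 46.8 and 42.6 CPM in shRNF8 and 49.2, 55.9 and 54.7 CPM in shScr (edgeR adjusted p = 0.216, log2 fold change -0.23, SE 0.10).

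34 members have the start of another gene within 1000 bp, as at a shared promoter. Of the 31 of these that were tested, 16.1%, 22.6%, 19.4% and 16.1% had a start peak in shRNF8 replicates 1 to 4 and 54.8% and 32.3% in shScr replicates 1 and 2. All 4 shRNF8 libraries were below both shScr libraries (18.5 ± 3.09% in shRNF8 and 43.5 ± 16% in shScr, SD, n = 4 and 2, exact permutation p = 0.0667, the smallest possible). In the 165 tested members without such a neighbour the means were 24.8 ± 4.87% in shRNF8 and 29.4 ± 5.57% in shScr (exact p = 0.4), and in other chromosome 19 genes with a neighbouring start they were 47.6 ± 2.57% in shRNF8 and 58.3 ± 4.04% in shScr (exact p = 0.0667). Where members share a start region, the same peak counts for each of them. In shScr replicate 1 this held for ZNF490 with ZNF791, ZNF529 with ZNF382, ZNF565 with ZNF146 and ZNF569 with ZNF570. It also held for ZNF565 with ZNF146 in shRNF8 replicates 1 and 2 and shScr replicate 2. For ZNF569 with ZNF570 it held in shRNF8 replicate 2 and shScr replicate 2. Shares by distinct peak were not computed. The split by neighbouring start was chosen after the data were seen and cannot reach p under 0.05. Whether the difference itself differs between these sets was not tested.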

How the data were processed

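RNA-seq values are raw fragment counts per gene that the authors deposited, made with featureCounts on read pairs against hg38 without a strand, multi-mapping or overlap option, per the file headers. Reads that fit near-identical zinc finger genes, or more than 1 gene, were thus not counted, so levels of close paralogs are uncertain. Each DRIP-seq library has its own deposited peak list in narrowPeak format, in which the authors give every peak a fold enrichment (a ratio to the local background) with -log10 p-value and -log10 q-value. Software named in the submitters' processing notes is STAR 2.7.9a, Trim Galore 0.6.6, Bowtie2 2.2.6, SAMtools 1.14, Picard 2.10.9, MACS2 2.2.7.1, deepTools 3.5.1 and Subread 2.0.1, with no roles, and the build hg38. The lowest -log10 q of an S9.6 list was 2.00 to 2.03. In the lists of shRNF8 replicates 3 and 4 the peaks bear names of replicates 1 and 2, although their positions are different. How deeply the DRIP libraries were sequenced is unknown. Input libraries were not analysed here.

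Differential expression was fitted with edgeR 4.0.16 in R 4.3.3 (filterByExpr, TMM, robust glmQLFit, glmQLFTest, group as the only term, 14018 genes), with DESeq2 1.42.0 as an alternative. The level per kilobase is the mean CPM divided by exon length in kilobases. The biological coefficient of variation was 12.4%. Peaks on chromosomes 1 to 22 and X were assigned by summit with Python 3.11.15, NumPy 2.4.6, SciPy 1.17.1 and pandas 2.3.3, using gene positions of the count table. A peak belonged to a member from 1000 bp before its start to 5000 bp after its end. Figures were drawn with matplotlib 3.10.9. The fit and the peak rules were tested on simulated data. The upper limit of a count of 0 is 3 counts of the total and covers counting error only.

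Named members were those with the 5 largest positive and negative log2 fold changes at a mean of at least 5 CPM, the 6 highest levels per kilobase, the 6 highest mean start folds among those with a start peak in all 6 S9.6 libraries, and up to 4 with start peaks in 1 hairpin group only; TRIM28 and SETDB1 were named from the corepressor list. CHD3, ZNF266, ZNF700 and the members printed as sequence were chosen after their values were seen. Members, lists and tests were chosen with earlier results of these data known.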

Additional observations from a re-analysis of the deposited data

Results flagged for a closer look

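In the 4 shRNF8 S9.6 libraries, 30 measures were checked for a library far from the others, and 2 were picked out; chance picks out about 1 in 20 such groups. In cluster E, 1 member had a start peak in shRNF8 replicate 3, while the other 3 libraries had 0, a single peak call. In cluster P, shRNF8 replicate 2 had 76.0 peaks per Mb, against 67.4 to 68.7 in the other 3 shRNF8 libraries. It still lay below both shScr libraries in these densities, which are not scaled to the total peaks of a library.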

How the results depend on the processing

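The members called numbered 0 in RNA-seq under library size scaling, DESeq2 size factors, no filter, a floor of 5 CPM, DESeq2 and the replicate block (22 members at an unadjusted p under 0.05 with the block, median log2 fold change 0.11); with 1 library left out they ran from 0 to 32, and the 32 came without shScr replicate 1. The numbers did not pair the RNA libraries (r = -0.09, 0.14 and -0.32 for numbers 1, 2 and 3). The median log2 fold change of the members was 0.0971 to 0.125 with 1 library left out, and under every other RNA setting run it moved by less than the spread between libraries (0.0302). Among members named by the stated rule, none passed the test except without shScr replicate 1, where 11 did, and ZNF266, named after its values were seen, passed there too; the fold change turned sign with a library left out in ZNF358 (-0.0501 to 0.121), ZNF554 (-0.118 to 0.286), ZNF579 (-0.137 to 0.0221), ZNF653 (-0.0292 to 0.113) and ZNF837 (-0.338 to 0.141).

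Start peaks of members against other chromosome 19 genes kept sign and p under each threshold and window run; with 1 library left out the difference was -23.6 to -21.9 and p was 0.0625, the smallest that 5 libraries can give. The S9.6 against RNase-treated difference was 49.4 to 56.4 with 1 library left out, and the replicate block over 6 pairs gave 53.7 (exact p = 0.0312). For shRNF8 minus shScr, start peaks ran from -26.5 to -4.5 and the share of peaks inside members from -0.106 to -0.0175 with 1 library left out; with shRNF8 replicates 1 and 2 only, an alternative chosen after seeing the data, the share difference was 0.0303, and the cause was not tested. Unknown DRIP depth, 2 shScr S9.6 libraries and counting without multi-mapped reads limit these values.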
